A study of Mus musculus with 8 samples.

Results

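The 8 genes described here encode surface proteins of immune cells, inhibitory receptors and ligands, costimulatory molecules and activation markers: Lag3, Cd274 (which encodes PD-L1), Havcr2 (which encodes TIM-3), Cd80, Cd86, Cd40, Cd83 and Cd69. They were taken by gene symbol from the 19938 genes with a probe set of their own, and the list was drawn up with earlier results of these arrays known. Where a gene had more than 1 probe set, its probe set was chosen by the highest mean over all 8 arrays. That choice used the level and not the difference between genotypes, and among the 8 genes only Cd80, with means of 7.16 and 6.89 for its 2 probe sets, required it. All 8 genes were measured, with no filter on low values.

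Microglia, the resident macrophages of the brain, were sorted by their CD11b and CD45 staining from whole brains of MFP2 knockout mice (4 arrays) and of wild-type control mice (4 arrays). Both groups were labelled female Swiss Webster mice aged 17 weeks. MFP2 is the product of Hsd17b4 and acts in peroxisomes, where it takes part in the breakdown of very long-chain fatty acids. Values are log2 expression values, 1 array per sample. The labels give replicate numbers but do not say whether each is its own animal, so the p-values cover only the variation among these 8 arrays, which may be technical.

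As background, a T cell that meets an antigen receives a stimulatory signal when CD80 or CD86 on the presenting cell engages CD28, and an inhibitory signal when the same ligands engage CTLA-4 or when PD-L1 engages PD-1. CD40 is the receptor by which T cells, through CD40 ligand, in turn activate the presenting cell. LAG-3, a relative of CD4, binds MHC class II, and TIM-3 binds galectin-9 among other ligands; both are known best as inhibitory receptors of T cells. CD83 marks mature dendritic cells, and CD69 is an early activation marker that holds the sphingosine-1-phosphate receptor S1P1 inside the cell.

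Hsd17b4 was at 4.76, 7.20, 5.21 and 5.20 in knockout 1 to knockout 4, against 8.83, 9.09, 8.15 and 7.82 in control 1 to control 4, with knockout 2 the highest of its group. The microglial markers Tmem119, Cx3cr1 and P2ry12 were high on every array, with lowest values of 11.69, 12.22 and 10.53. They were nonetheless lower in knockouts, with log2 changes (knockout minus control) of -0.66, -0.50 and -0.45. For each of them every knockout value lay below every control value. Control 1 went against its female label, with Xist at 6.80 and the Y-linked Eif2s3y at 8.14, where the other 7 arrays had Xist between 10.56 and 10.99 and Eif2s3y between 2.78 and 2.99. Every call among the 8 genes was the same with control 1 left out, and also without control 3, the control closest to the knockouts on the first principal component, and knockout 2 together. In a population of sorted cells, more cells expressing a gene and more RNA per cell cannot be told apart.

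In knockout microglia 5 of the 8 genes were higher than in controls, 0 were lower and 3 did not pass the test (limma, Benjamini-Hochberg adjusted p under 0.05 over all genes). Over all genes tested 9.55% were called, 5.38% higher and 4.17% lower. The 5 were Cd83, Lag3, Cd274, Cd69 and Cd86, in order of the size of their change, and the remaining 3 were Cd40, Havcr2 and Cd80. The median log2 change of the 8 genes was 0.66, against -0.02 over all genes. For 6 of the 8 genes every knockout value lay above every control value, where 7.09% of all genes did so. The 6 include Cd40, which did not pass the test and whose groups were only 0.0005 apart. Since the genes were listed with results known, these counts describe them and support nothing further.

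**Figure D1:**
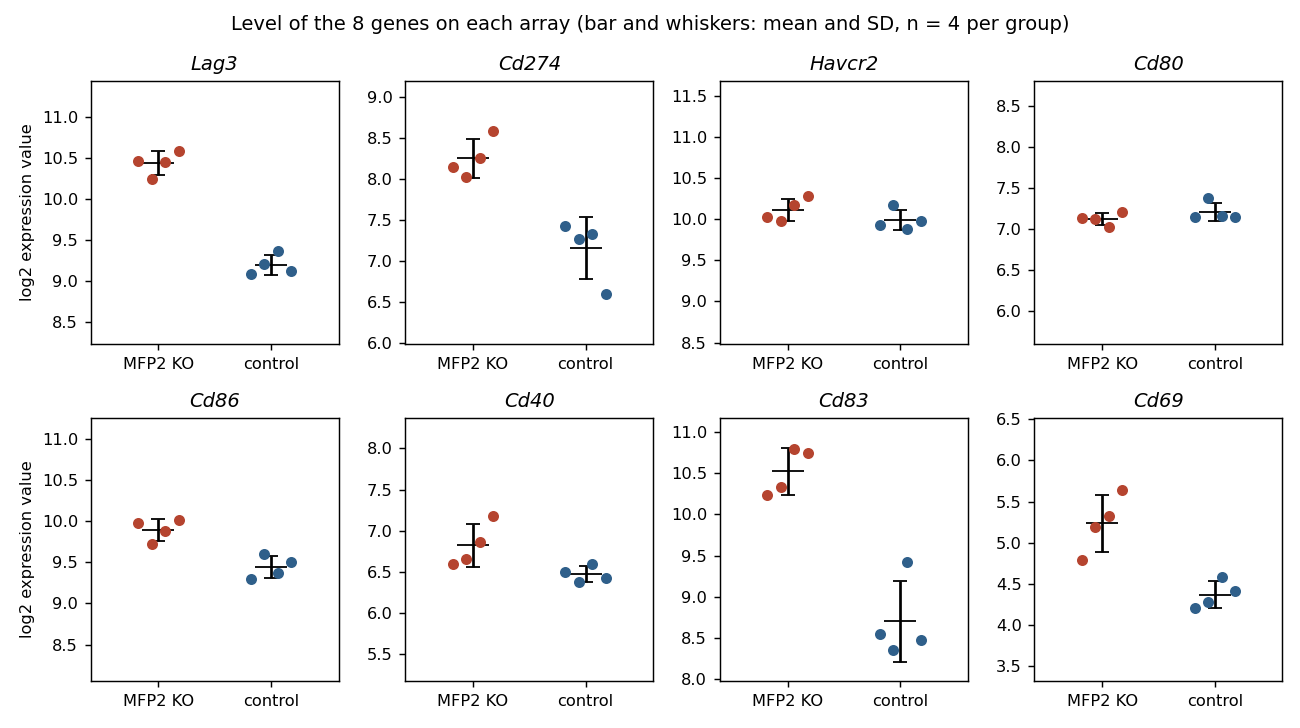
Log2 expression value (vertical axis, of the same span in every panel) of each of the 8 genes on the 4 MFP2 knockout arrays and the 4 control arrays, with mean and SD. The groups are clearly apart for Lag3, Cd274, Cd83 and Cd69, narrowly so for Cd86 and barely so for Cd40. They intermingle for Havcr2 and for Cd80, which is shown by its probe set of higher mean.

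Among the inhibitory molecules, Lag3 and Cd274 rose and Havcr2 did not pass the test. Lag3 was at 10.47, 10.24, 10.45 and 10.58 in knockout 1 to knockout 4, against 9.08, 9.21, 9.37 and 9.13 in control 1 to control 4. The lowest knockout array stood 0.87 above the highest control array, and the spread within each group was small. The log2 change of Lag3 was 1.24 ± 0.10 (SE, limma adjusted p = 0.000155, n = 4 and 4), or 2.36-fold, with a 95% confidence interval of 1.02 to 1.46. By p-value Lag3 ranked 4 among all 19938 genes, while by size of increase it ranked 104.

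Cd274 was at 8.15, 8.03, 8.25 and 8.58 in knockout 1 to knockout 4, against 7.42, 7.26, 7.34 and 6.60 in control 1 to control 4. The groups did not overlap, and control 4 lay well below the other controls. Its log2 change was 1.10 ± 0.17 (SE, limma adjusted p = 0.00194), or 2.14-fold, and it was 0.91 without control 4 (limma adjusted p = 0.00239). Havcr2 was at 10.02, 9.98, 10.17 and 10.28 in knockout 1 to knockout 4, against 9.93, 10.17, 9.88 and 9.98 in control 1 to control 4. These groups overlapped. The difference of 0.12 ± 0.10 (SE, limma adjusted p = 0.567) had a 95% confidence interval of -0.09 to 0.34, which leaves out a change as large as that of Lag3 or Cd274.

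A RefSeq table of GRCm38.p6 promoter sequences held 3 of the 8 genes, Cd274, Cd80 and Havcr2. The 250 bases before the annotated start are shown for Cd274, which rose, and for Cd80, which did not pass the test, with motif matches on either strand in capitals. The Cd274 stretch is chr19:29367188-29367437 and the Cd80 stretch is chr16:38458683-38458932, both on the plus strand.
Cd274: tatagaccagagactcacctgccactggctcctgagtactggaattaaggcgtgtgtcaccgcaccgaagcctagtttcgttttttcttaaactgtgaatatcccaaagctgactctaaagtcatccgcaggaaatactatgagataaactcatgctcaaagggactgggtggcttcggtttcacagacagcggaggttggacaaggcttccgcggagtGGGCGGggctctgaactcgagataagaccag
Cd80: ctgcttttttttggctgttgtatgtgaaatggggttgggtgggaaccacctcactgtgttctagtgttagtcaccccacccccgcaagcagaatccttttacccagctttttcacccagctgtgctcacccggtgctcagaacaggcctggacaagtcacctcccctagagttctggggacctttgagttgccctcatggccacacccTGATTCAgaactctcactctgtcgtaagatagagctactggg
The capitals mark a GC box (GGGCGG) in Cd274 and a match to TGANTCA in Cd80. That pattern allows any middle base and is looser than the AP-1 consensus, whose middle base is C or G. The match in Cd80 reads TGATTCA and is therefore not a consensus AP-1 site. Of 32851 promoter stretches of the same length, 32.7% held the GC box and 6.75% the loose pattern TGANTCA, which the Havcr2 stretch also held as TGATTCA. The core of the interferon-stimulated response element (2.98% of stretches), the gamma-activated site TTCNNNGAA (7.02%) and the NF-kB consensus (3.90%) had 0 matches in these windows of the 3 genes. A match is a stretch of letters only, and its absence here says nothing on binding elsewhere.

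Of the CD28 ligands, Cd86 rose while Cd80 did not pass the test. Cd86 was at 9.97, 9.72, 9.88 and 10.02 in knockout 1 to knockout 4, against 9.30, 9.60, 9.37 and 9.51 in control 1 to control 4. Knockout 2 stood 0.12 above control 2, and the groups were otherwise well separated. The log2 change of Cd86 was 0.45 ± 0.10 (SE, limma adjusted p = 0.0131), or 1.37-fold. Cd80 was at 7.13, 7.12, 7.03 and 7.21 in knockout 1 to knockout 4, against 7.15, 7.37, 7.16 and 7.14 in control 1 to control 4. Its groups overlapped, and the difference of -0.08 ± 0.09 (SE, limma adjusted p = 0.679) had a 95% confidence interval of -0.28 to 0.11. The other probe set of Cd80 was lower on average, at 6.89, 6.58, 6.73 and 6.78 in knockout 1 to knockout 4, against 6.94, 7.02, 7.06 and 7.11 in control 1 to control 4. Every knockout value of that probe set lay below every control value. With every probe set tested separately, its difference of -0.29 ± 0.09 (SE) missed the threshold too (limma adjusted p = 0.0656).

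Whether the 2 ligands changed unequally was tested within arrays. The log2 value of Cd80 minus that of Cd86 was -2.77 ± 0.12 in knockouts and -2.24 ± 0.09 in controls (SD, n = 4 each), a difference of -0.54 (exact two-sided permutation test, p = 0.0286, the smallest that 70 arrangements allow, or 0.0429 adjusted over 3 pairs). Most of that difference is the rise of Cd86 (0.45), so it is little separate evidence of an unequal change. The adjusted value fell under 0.05 only because Lag3 and Cd4, below, reached the same smallest p. For the PD-1 ligands Cd274 and Pdcd1lg2, which encodes PD-L2, the within-array value was 2.68 ± 0.36 in knockouts and 2.15 ± 0.40 in controls, and the difference of 0.53 did not pass (exact permutation p = 0.114, adjusted 0.114). Pdcd1lg2 itself was at 5.27, 4.94, 5.81 and 6.27 in knockout 1 to knockout 4, against 5.11, 4.97, 4.89 and 5.04 in control 1 to control 4. The knockout arrays were widely spread, with knockout 2 among the controls, and the log2 change of 0.57 ± 0.22 (SE, limma adjusted p = 0.152) was 0.78 without knockout 2 and passed the threshold there (limma adjusted p = 0.0208).

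Lag3 and its relative Cd4 lie side by side in the mouse genome, with 0 annotated protein-coding genes between them, as do Cd274 and Pdcd1lg2. The within-array value of Lag3 minus Cd4 was 4.87 ± 0.41 in knockouts and 3.91 ± 0.16 in controls (SD, n = 4 each), a difference of 0.96 (exact permutation p = 0.0286, adjusted 0.0429). Cd4 was dim, at 5.33 to 5.98 on knockout arrays and 4.98 to 5.65 on control arrays, and did not pass the test (0.28 ± 0.16, SE, limma adjusted p = 0.363). The difference within arrays therefore largely restates the rise of Lag3 and is no separate evidence of an unequal change. The 3 pairs, like the genes, were chosen with earlier results known.

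Both activation markers rose, and the receptor Cd40 did not pass the test. Cd83 had the largest change of the 8 genes, at 10.23, 10.33, 10.79 and 10.75 in knockout 1 to knockout 4, against 8.54, 8.36, 9.43 and 8.47 in control 1 to control 4. Control 3 stood apart from the other controls and was still 0.81 below the lowest knockout array. The log2 change of Cd83 was 1.83 ± 0.21 (SE, limma adjusted p = 0.000433), or 3.55-fold, and by size of increase it ranked 40 of all genes. Without control 3 it was 2.07.

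Cd69 was dim, at 4.79, 5.19, 5.32 and 5.64 in knockout 1 to knockout 4, against 4.20, 4.27, 4.58 and 4.41 in control 1 to control 4. The groups did not overlap, knockout 1 lay closest to the controls, and its mean over the 8 arrays was at percentile 22.5 of all genes. The log2 change of Cd69 was 0.87 ± 0.15 (SE, limma adjusted p = 0.00372), or 1.83-fold. It may understate the true one, because the normalization used can compress changes of dim genes, which was not tested here. No detection call was used, so whether Cd69 stood above background was not tested either. Cd40 was at 6.59, 6.65, 6.86 and 7.18 in knockout 1 to knockout 4, against 6.50, 6.37, 6.59 and 6.43 in control 1 to control 4. Knockout 1 lay above control 3 by less than the rounding, and knockout 4 was the highest. The difference of 0.35 ± 0.12 (SE, limma adjusted p = 0.111) was 0.23 without knockout 4.

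**Figure D2:**
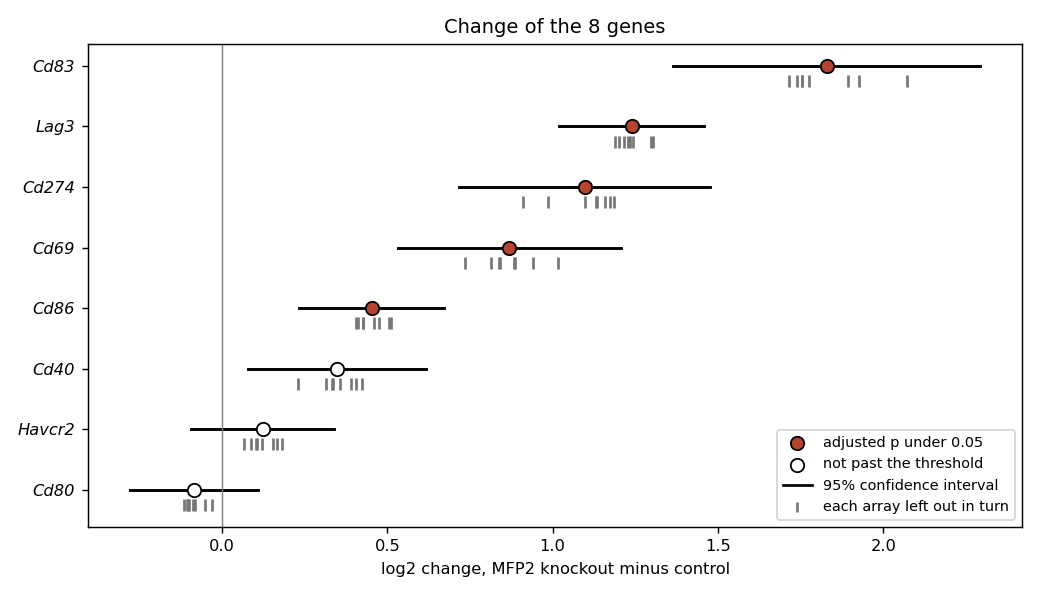
Log2 change of each of the 8 genes (MFP2 knockout minus control, horizontal axis) with the 95% confidence interval of the limma fit, and below each the values with each array left out in turn. Filled points passed the adjusted threshold, and no single array moved a gene across it.

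Within the knockout group the 8 genes shared their highest array more than their lowest. Knockout 4 was the highest knockout array for 7 of the 8 genes, all but Cd83. Knockout 2 was the lowest for 4 genes, knockout 1 for 3 and knockout 3 for 1. Among the controls, control 3 was the highest for 4 genes (Lag3, Cd40, Cd83 and Cd69). Averaged over the 8 genes, the log2 level was 8.42, 8.41, 8.59 and 8.78 in knockout 1 to knockout 4, against 7.77, 7.83, 7.96 and 7.71 in control 1 to control 4. The arrays share their cells across all 8 genes, so this ordering is a description of the arrays. Over all genes, knockout 4 was also the array farthest from the controls on the first principal component. The share of all genes with their highest knockout value there was not counted.

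The profiles most like those of the 5 raised genes, by the root mean square difference of log2 values centred over the 8 arrays, were sought among genes with a mean log2 value of at least 6, predicted and small RNA genes left out. Mthfd2, an enzyme of mitochondrial folate metabolism, differed from Lag3 by 0.09, and the pyrophosphate transporter gene Ank by 0.10. Closest to Cd274 were the small GTPase gene Rap2b (0.11) and Eid1 (0.13). Next to Cd86 came Ints12, a subunit of the Integrator complex (0.06), and Txndc16 (0.07). Cd83 was closest to complement factor B, Cfb (0.10), and Ptchd1 (0.13). Ifitm2, an interferon-induced membrane protein gene, lay closest to Cd69 (0.10), followed by Atp5mpl, which encodes a small protein of ATP synthase (0.10). The measure compares the shape and size of a profile over 8 arrays and says nothing on shared function.

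Among 17 listed binding partners of the 8 proteins, 3 were higher, 1 was lower and 13 did not pass the test, with a median log2 change of 0.12. Of all genes, 5.38% were higher and 4.17% lower. Pdcd1, which encodes the PD-L1 receptor PD-1, was at 8.20, 8.66, 8.90 and 8.92 in knockout 1 to knockout 4, against 6.88, 6.53, 7.68 and 6.96 in control 1 to control 4. The groups did not overlap, and control 3 was again the highest control. Its log2 change was 1.65 ± 0.22 (SE, limma adjusted p = 0.000696), or 3.15-fold.

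S1pr1, the receptor held by CD69, was at 9.16, 8.67, 8.86 and 8.60 in knockout 1 to knockout 4, against 7.02, 6.83, 7.65 and 6.19 in control 1 to control 4. It rose by 1.90 ± 0.24 (SE, limma adjusted p = 0.000574). Lgals3, the gene of galectin-3, which can bind LAG-3, rose by 1.01 ± 0.15 (limma adjusted p = 0.00111), to 8.66 ± 0.31 (SD) in knockouts, against 7.65 ± 0.19 in controls. Ceacam1, an adhesion molecule reported to bind TIM-3, fell by 0.78 ± 0.22 (limma adjusted p = 0.0477), and that call was lost without knockout 1, 2 or 3 or without control 1, 2 or 4 (limma adjusted p = 0.0714 to 0.136). The LAG-3 ligand genes H2-Aa, H2-Ab1 and H2-Eb1 differed by 0.12, 0.21 and -0.32 and did not pass. Lgals9, the gene of the TIM-3 ligand galectin-9, was at 10.15 to 10.39 in knockouts and 10.13 to 10.29 in controls. The T cell receptors of CD80 and CD86 were dim, Cd28 at 4.95 to 5.54 in knockouts and 4.89 to 5.58 in controls, and Ctla4 at 4.21 to 5.09 in knockouts and 4.40 to 5.09 in controls.

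Of 30 other costimulatory and coinhibitory molecules, 2 were higher, 1 was lower and 27 did not pass. Over all genes 5.38% were higher and 4.17% lower. The median log2 change of the list was -0.02, the same rounded value as that of all genes. By these counts and this median the list was close to all genes. Tnfsf9, the ligand of the T cell costimulator 4-1BB, was at 6.25, 6.82, 6.88 and 7.50 in knockout 1 to knockout 4, against 5.75, 5.49, 5.18 and 4.07 in control 1 to control 4. Control 4 lay lowest and the groups did not overlap. The log2 change was 1.74 ± 0.33 (SE, limma adjusted p = 0.00492), and 1.39 without control 4. Cd48, a ligand of the receptor 2B4, rose by 0.67 ± 0.14 (limma adjusted p = 0.0112). Vsir, which encodes the inhibitory checkpoint protein VISTA, fell by 0.55 ± 0.11 (limma adjusted p = 0.00801), with 10.83, 11.17, 10.69 and 10.73 in knockout 1 to knockout 4, against 11.52, 11.44, 11.30 and 11.37 in control 1 to control 4. Its direction was opposite to that of Lag3 and Cd274. The 1 lower gene of this list became 2 without knockout 4 or without control 3.

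**Figure D3:**
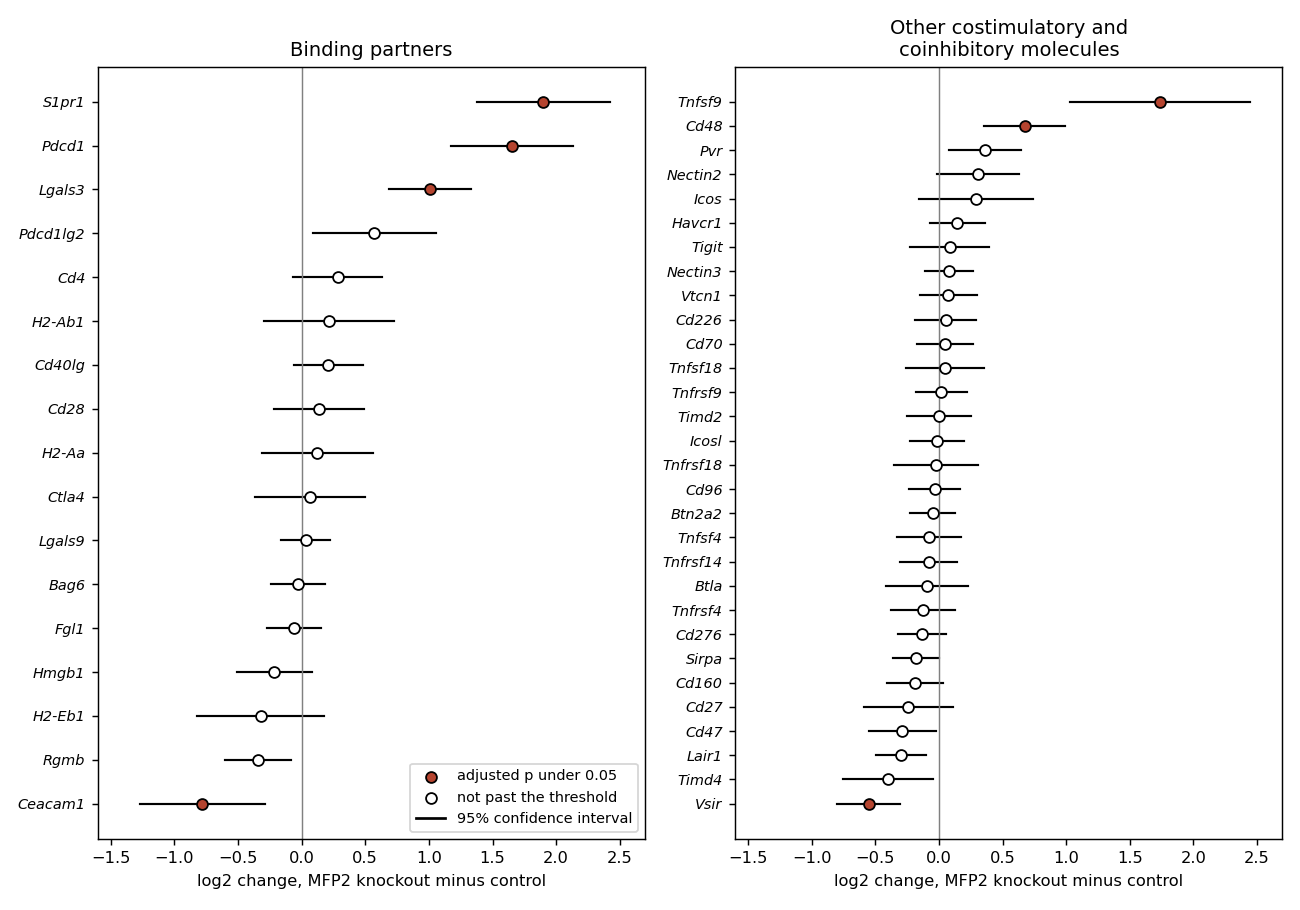
Log2 change (MFP2 knockout minus control, horizontal axis) with 95% confidence interval for 17 binding partners (left) and 30 other costimulatory and coinhibitory molecules (right). S1pr1, Pdcd1, Lgals3, Tnfsf9 and Cd48 passed the threshold upward, and Ceacam1 and Vsir downward.

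Of 9 measured genes of interferon-gamma signalling and PD-L1 stability, 0 were higher and 2 were lower, while Cd274 itself rose. Cmtm6, a membrane protein that protects PD-L1 from degradation, fell by 1.07 ± 0.11 (SE, limma adjusted p = 0.00029), with 10.51, 11.00, 10.56 and 10.57 in knockout 1 to knockout 4, against 11.78, 11.69, 11.62 and 11.81 in control 1 to control 4. Knockout 2 stood above the other knockouts and below every control. The interferon-gamma receptor chain gene Ifngr1 fell by 0.62 ± 0.09 (limma adjusted p = 0.00106), to 10.85 ± 0.06 (SD) in knockouts, against 11.46 ± 0.12 in controls. Irf1, an interferon-induced transcription factor gene, was at 7.52 to 7.78 in knockouts and 7.60 to 7.74 in controls.

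Of 15 measured CD40 adaptors and NF-kB genes, 2 were higher and 1 was lower. Rel, an NF-kB subunit gene, fell by 0.58 ± 0.11 (SE, limma adjusted p = 0.00484). Relb and Nfkb2, subunits of the non-canonical pathway that CD40 can engage, passed narrowly with increases of 0.31 ± 0.09 and 0.32 ± 0.09 (limma adjusted p = 0.0447 and 0.0479). The count of 2 became 0 or 1 with any array left out (Relb remained past the threshold only without control 4 and Nfkb2 only without knockout 2), and the 1 lower gene became 3 without control 3.

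Markers of other cells were read beside these results. Of 11 measured T cell markers, 2 passed the test, both higher (Cd5 by 0.53 and Thy1 by 0.84), and 10 had a positive difference, all but Cd247, which encodes the CD3 zeta chain (-0.05). The list averaged 6.71, 6.95, 6.40 and 6.71 in knockout 1 to knockout 4, against 6.42, 6.20, 6.69 and 6.13 in control 1 to control 4. The groups overlapped through knockout 3 and control 3. The CD3 chain genes Cd3g, Cd3e and Cd3d differed by 1.02, 0.42 and 0.35 and did not pass (limma adjusted p = 0.0859, 0.304 and 0.389). Control 3 was the highest control for the T cell average, Lag3 and Pdcd1 alike, while among the knockouts the highest T cell average was in knockout 2, which had the lowest Lag3, and the lowest was in knockout 3. The NK cell list had 0 of 9 markers called, with Ncr1 at 3.87 to 4.17 in knockouts and 3.81 to 4.00 in controls, and the B cell list had 0 of 8. Neutrophil markers also had 0 of 8 called, with list averages of 8.58 to 9.55 in knockouts and 7.54 to 10.3 in controls. Control 1 was the lowest in neutrophil markers and control 3 the highest. Of the 8 genes, control 1 was the lowest control for 3 and control 3 the highest for 4. Both held for Lag3 (9.08 and 9.37) and Cd69 (4.20 and 4.58). For Cd274 the values were 7.42 and 7.34, with control 1 the highest control.

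Of the dendritic cell markers 0 of 9 were higher and 2 lower (Cd209a and Fscn1), with averages of 6.35 to 6.49 in knockouts and 6.52 to 6.69 in controls. The median log2 change of that list was -0.005, and the lower averages came mainly from those 2 markers. Fscn1 was bright on every array (10.11 to 11.50), and which cells its RNA came from was not tested. The monocyte list had 0 of 5 higher and 1 lower (Ccr2), with averages of 5.83 to 6.56 in knockouts and 5.88 to 6.57 in controls. Brain-border macrophage markers had 1 higher and 4 lower of 7, with averages of 5.76 to 6.44 in knockouts and 6.38 to 6.97 in controls. Microglia markers had 8 of 9 lower, at averages of 10.9 to 11.3 in knockouts and 11.6 to 11.8 in controls. The part of these other cells in the changes of the 8 genes was not tested beyond the values given.

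Immediate-early and heat shock genes, which respond to tissue handling, had 1 of 16 higher (Egr2, by 1.04 ± 0.22, SE, limma adjusted p = 0.00988) and 1 lower (Hspa1a, by -0.64 ± 0.15, limma adjusted p = 0.0171, a call lost without control 1 or control 4). The list averaged 7.43, 7.90, 7.98 and 8.17 in knockout 1 to knockout 4, against 7.32, 7.24, 7.73 and 9.29 in control 1 to control 4. Control 4 stood far above the other 7 arrays, and its Cd69 and Cd83 were within the range of the other controls. Without control 4, 4 genes of the list were higher and 0 lower, and the changes of Cd69 and Cd83 were 0.88 and 1.75. The knockout arrays stood in the same order for this list as for Cd69 and Cd40, and its part in those values was not tested.

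**Figure D4:**
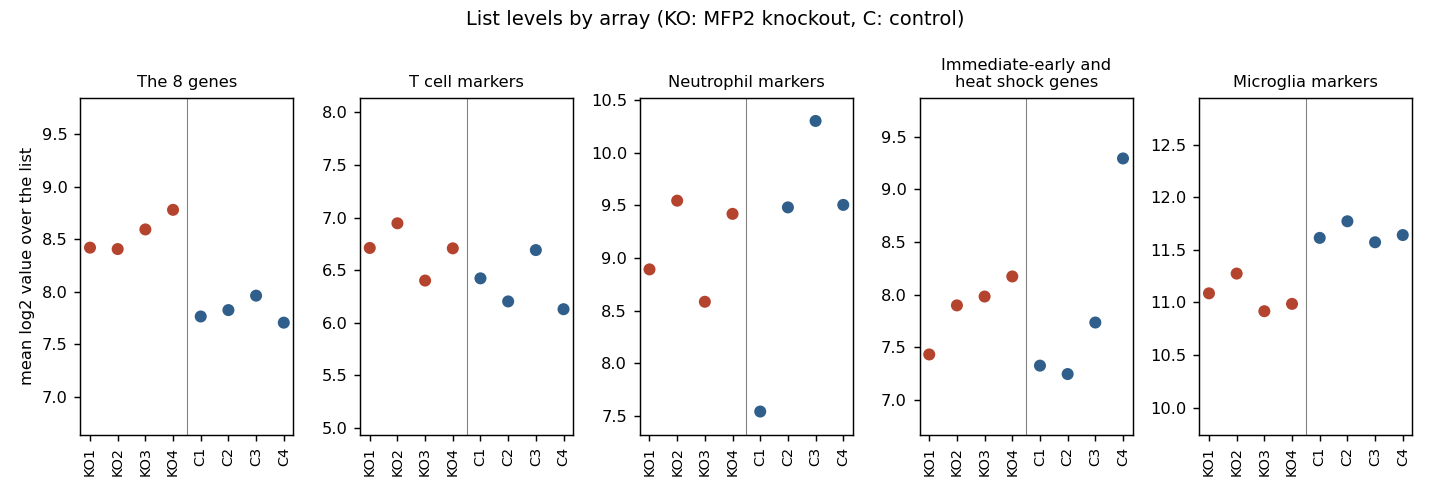
Mean log2 value of 5 gene lists on each array (knockout 1 to 4 left, control 1 to 4 right; the vertical axes have the same span). The 8 genes separate the groups, T cell and neutrophil markers overlap between them, control 4 is highest for immediate-early and heat shock genes, and microglia markers are lower on all knockout arrays.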

How the data were processed

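Microglia were sorted as CD11b-high, CD45-intermediate cells from perfused brains, per the labels' protocols, and 5.775 ng of RNA (integrity number 8 or higher) per sample was amplified and hybridised to 1 array. The deposited values are log2 values per probe set, made by the authors with RMA, as the submitters' processing notes state; which program ran it is not stated there. A base of 2 was taken from the span of the values, 2.04 to 13.99. Because RMA equalises probe intensities between arrays, a change common to all genes may not be visible. Of 28874 probe sets 21789 had 1 gene symbol, which gave 19938 genes; probe sets with several symbols or none were not used. Levels are compared between arrays and not between genes, because probes differ in brightness.

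MFP2 knockout was compared with control by limma (version 3.58.1, R version 4.3.3; moderated two-sided test, no covariate), adjusted over all 19938 genes. Pairs of genes were compared by exact permutation over the 8 arrays (scipy 1.17.1). The genes, lists and pairs were chosen with earlier results of these data known. Named genes were the 8 genes, Hsd17b4, pair partners, up to 4 called genes of each functional list and the 2 nearest profiles of each called gene; others are named to complete a marker check, a ligand set or a low count, after their values were seen. Some listed genes are not analysed here, and counts are over the measured ones. Alternatives were a filter on dim genes, 3 other scalings, the mean of probe sets, other variance settings, array weights, a replicate block and arrays left out.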

Additional observations from a re-analysis of the deposited data

Results flagged for a closer look

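Among 70 groups of 4 arrays (35 named genes in 2 genotypes), 2 had an array far from the other 3 by Dixon's criterion, where chance gives about 5%. Cmtm6 in knockout 2 was at 11.00, against 10.51 to 10.57 in the other knockout arrays. Cd80 in control 2 was at 7.37, against 7.14 to 7.16 in the other controls.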

How the results depend on the processing

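For each of the 8 genes the direction and the side of the threshold were the same under all alternatives run, 17 for each gene (16 for Cd69, which the filter on dim genes removed), plus the other probe set of Cd80. The number of higher genes among the 8 was 5 with any array left out, and 4 only where that filter removed Cd69. The highest adjusted p was 0.00196 for Lag3, 0.00899 for Cd274, 0.0490 for Cd86, 0.00335 for Cd83 and 0.0194 for Cd69, and the lowest was 0.0569 for Cd40. Arrays of the same replicate number had correlations of deviations from the group mean of 0.158, -0.06, 0.01 and 0.01 for replicates 1 to 4. The value for replicate 1 was the highest of all knockout and control combinations. With so few arrays, these values cannot show whether replicate numbers mark a shared batch. With the replicate block, 5 of the 8 genes were again higher, 0 CD40 and NF-kB genes were higher, and 2 immediate-early and heat shock genes were lower.

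With an array left out, 753 to 1162 genes of the whole table were higher and 507 to 960 lower; the lower count was 544 without control 1, 517 without control 2 and 507 without knockout 3. Lower binding partners numbered 2 after quantile normalization, 0 with centred arrays or an intensity-dependent prior, and 0 to 2 with an array left out. For other costimulatory and coinhibitory molecules the filter on dim genes gave 1 higher and 2 lower, and quantile normalization, the intensity-dependent prior and array weights gave 2 lower; an array left out gave 2 to 3 higher and 1 to 2 lower. CD40 and NF-kB genes had 1 higher with centred arrays or array weights, 0 with the intensity-dependent prior or without control 3 and knockout 2, and 0 to 1 with an array left out; 2 were lower with the dim filter, quantile normalization or without those 2 arrays, and 1 to 3 with an array left out. Immediate-early and heat shock genes had 1 to 4 higher and 0 to 1 lower with an array left out. The within-array differences with an array left out were -0.59 to -0.51 for Cd80 and Cd86 (adjusted p = 0.0571 to 0.0857) and 0.87 to 1.16 for Lag3 and Cd4 (0.0571 to 0.0857), and -0.58 and 1.10 without control 3 and knockout 2 (0.100 each); exact tests on so few arrays cannot pass the threshold. Otherwise the cause was not tested. The 4 arrays per group limit precision, and no detection call was used.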
